A study of Mus musculus with 2 samples.

Results

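The 31 genes described here encode the glucose transporter Slc2a1, the enzymes that carry glucose to pyruvate and lactate, the lactate carriers, and regulators and targets of hypoxia-inducible factor (HIF). They were taken as the rows of the gene table whose Ensembl identifier maps to a list of 31 symbols, and all 31 were present among the 34745 identifiers. The cells were primary bone marrow-derived macrophages (BMDM), cells grown from marrow precursors, of C57BL/6 mice. One group was transfected with AclyE14-ASO, an antisense oligonucleotide named for Acly, the gene for the enzyme that splits citrate into acetyl-CoA and oxaloacetate. The other was transfected with Control-ASO, and both were treated with lipopolysaccharide (LPS), the bacterial product that activates macrophages, and cells without LPS or without an oligonucleotide were not analysed here. Each group was 1 RNA-seq library, so no difference below has a replicate check, no test was run and no p-value is given. Whether a library came from 1 mouse or from pooled mice, and which doses and times of oligonucleotide and LPS were used, the sources used here do not give.

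Glycolysis splits glucose into pyruvate in the cytosol, and lactate dehydrogenase turns pyruvate into lactate, which leaves the cell through monocarboxylate transporters. HIF is a transcription factor made of an oxygen-regulated alpha subunit and a constant beta subunit; prolyl hydroxylases mark the alpha subunit for degradation when oxygen is present. Macrophages activated by LPS are known for high glycolytic flux and for stabilised HIF, and many glycolytic genes are HIF targets.

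The Control-ASO library held 14215397 gene counts and the AclyE14-ASO library 12751076. The targeted gene, Acly, was at 13.3 FPKM (1549 counts) with Control-ASO and 7.35 FPKM (768 counts) with AclyE14-ASO, a ratio of counts per library total of 0.553 (0.506 to 0.603). Here and below, FPKM are the deposited levels scaled for gene length and library size, and the range in brackets is an exact 95% interval that covers counting error only. Of the macrophage markers, all 12 were measured, with Lyz2 at 9800 and 12300 FPKM and Adgre1 at 84.8 and 67.4 FPKM (Control-ASO first). By 1.5-fold 3 of the 12 were higher with AclyE14-ASO (Itgam, Cd14 and Fcgr1, count ratios 4.74, 2.23 and 1.96) and 2 were lower (Cd68 and C1qa, 0.557 and 0.602). Itgam, Cd14, Fcgr1 and C1qa were named after their values were seen, and the Itgam value is uncertain because another gene overlaps it on the same strand. Fibroblast and stromal markers were higher with AclyE14-ASO: the 14 listed genes summed to 59.2 and 255 FPKM, the 7 at 1 FPKM or more with Control-ASO were all higher by over 1.5-fold, and Col1a1 was at 2.99 and 20.2 FPKM, while Postn had 0 and 5 counts. The 5 erythroid markers had no counts in either library, nor had the neutrophil gene Elane or the T cell gene Cd3e, while the neutrophil gene S100a8 was at 19.7 and 41.4 FPKM. In bulk RNA, a different number of cells of a type and a different amount of RNA per cell cannot be told apart.

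As a group, these genes differed little between the libraries, as did most expressed genes. Of the 31, 29 averaged 1 FPKM or more between the 2 libraries, and only these were called by size. On the scale of FPKM + 1, 3 were higher with AclyE14-ASO by 1.5-fold or more: Hk1, a hexokinase, Aldoc, an aldolase, and Ldhb, a lactate dehydrogenase subunit. Among all 8658 genes with that mean, 7.03% were higher by this rule. In the other direction 2 were lower, Pfkl, a phosphofructokinase, and Tigar, an enzyme that opposes glycolysis, against 8.48% of all genes. The other 24 lay between, and 18 of the 29 (62.1%) had a log2 ratio within 0.32 of equal levels, against 59.1% of all genes. The median log2 ratio was 0.02 with a range of -0.63 to 0.90, beside a median of -0.13 over all genes. The summed level of the 31 genes was 1500 FPKM with Control-ASO and 1520 FPKM with AclyE14-ASO, and their share of all counts was 0.644% and 0.671%.

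These counts are near the background and turn on how the libraries are scaled. By count ratios, with no pseudocount added, 4 of the 29 were higher against 9.40% of all genes, and 2 were lower against 14.4%. The gene added was Pfkm, at 0.999 FPKM with Control-ASO and 1.59 FPKM with AclyE14-ASO. It passed the expression limit only through the AclyE14-ASO library. With the log2 ratios centred on the median gene, which adds 0.13 to each, 5 were higher (Hk1, Pfkfb3, Aldoc, Tpi1 and Ldhb) against 9.83% of all genes, and 0 were lower against 4.69%. Counting error alone was small for most: the interval excluded equal levels for 22 of the 31 genes and included them for 9. The same share was not taken over all genes. With many counts even a small difference excludes equal levels, as for Pkm (1.04, 1.01 to 1.06). For Aldoc and Ldhb the whole interval lay beyond 1.5-fold.

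**Figure D1:**
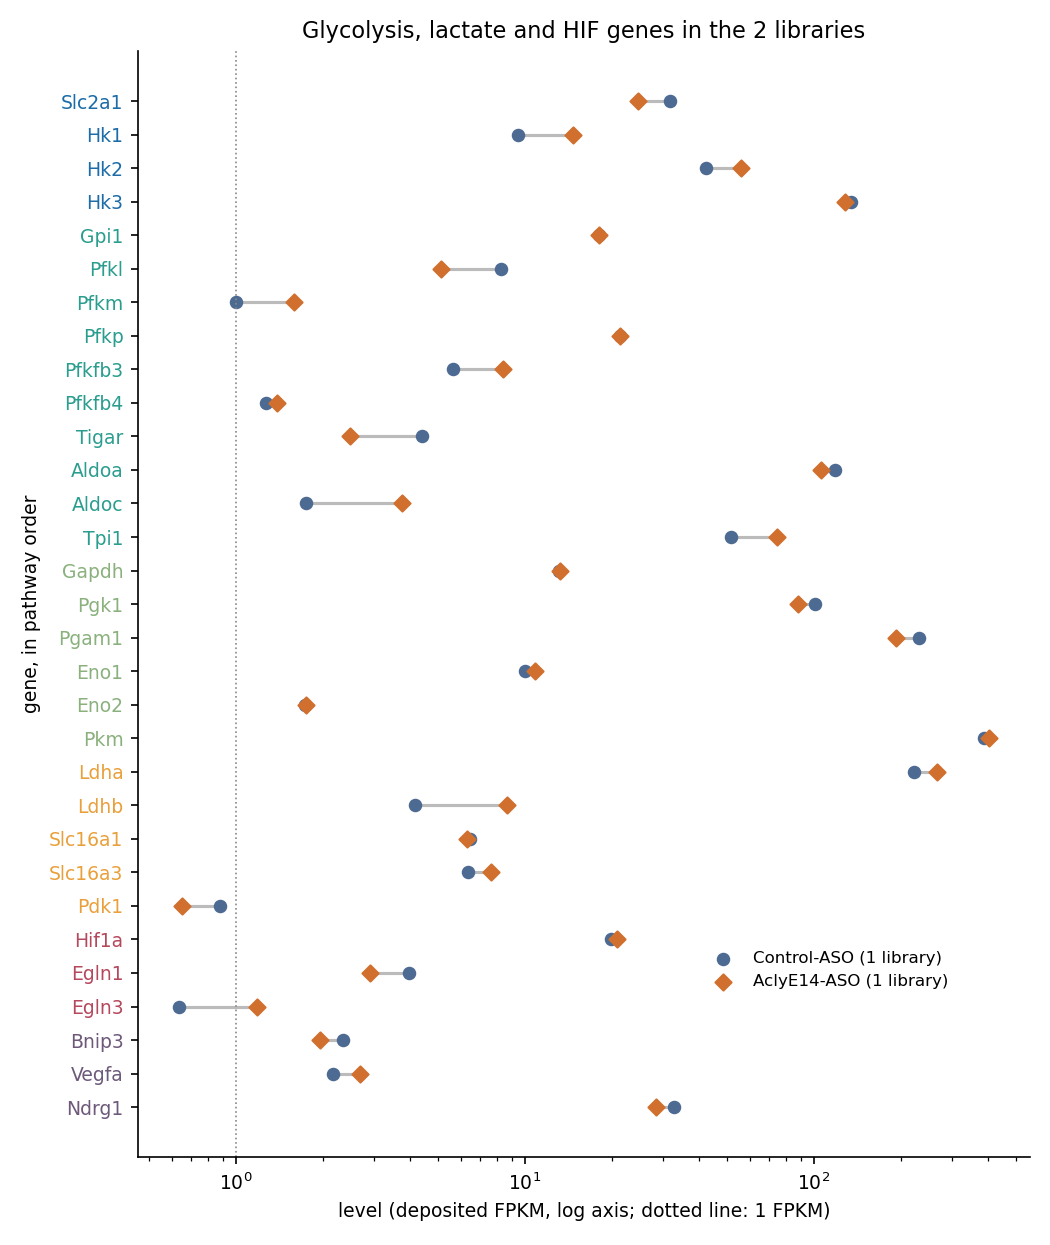
Level of each of the 31 genes in the Control-ASO library (circles) and the AclyE14-ASO library (diamonds), in deposited FPKM on a log axis, in pathway order and coloured by role. Most pairs of symbols nearly coincide, while Ldhb (4.18 and 8.69 FPKM) and Aldoc (1.75 and 3.75 FPKM) stand apart, with 1 library behind each symbol.

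The genes of glucose entry and trapping did not share a direction. Slc2a1, the main glucose transporter of activated macrophages, was at 31.9 FPKM (2368 counts) with Control-ASO and 24.6 FPKM (1636 counts) with AclyE14-ASO, a count ratio of 0.770 (0.723 to 0.821). Hexokinases phosphorylate glucose and so hold it in the cell, and the 3 listed isoenzymes differed in direction. Hk1, the broadly expressed form (chromosome 10, 62268855 to 62379908, minus strand, GRCm38), was at 9.47 FPKM (1666 counts) and 14.7 FPKM (2322 counts), a log2 ratio of 0.59 and a count ratio of 1.55 (1.46 to 1.66). This is only just past the 1.5-fold limit, and with the few reads of the overlapping antisense gene Hk1os added the log2 ratio was 0.58, short of it. Hk2, the inducible form and a HIF target, was at 42.3 and 56.1 FPKM, with a count ratio of 1.33 (1.27 to 1.38). Hk3, a form typical of myeloid cells, was at 134 and 128 FPKM, with a count ratio of 0.957 (0.932 to 0.983).

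In the upper, energy-consuming steps, the isomerase gene Gpi1 was level, at 18.1 FPKM in both libraries (count ratio 1.0, 0.943 to 1.06). Phosphofructokinase, the committed step, has 3 subunit genes. The liver-type subunit Pfkl (chromosome 10, 77986947 to 78010083, minus strand) was at 8.27 FPKM (573 counts) and 5.13 FPKM (319 counts), a log2 ratio of -0.60 and a count ratio of 0.621 (0.540 to 0.713). The platelet-type subunit Pfkp was level, at 21.4 and 21.3 FPKM (0.997, 0.95 to 1.05), and with the reads of Pitrm1, which overlaps it on the opposite strand, the log2 ratio was -0.07. The muscle-type subunit Pfkm was low, at 0.999 FPKM (42 counts) and 1.59 FPKM (60 counts), a ratio of 1.59 (1.06 to 2.42). Pfkm shares exon sequence with Senp1 on the opposite strand, which had 519 and 424 counts, and the sources used here do not say whether the authors counted by strand. With both genes summed the log2 ratio was -0.05 in place of 0.37, so the direction for Pfkm is uncertain.

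The bifunctional PFKFB enzymes make and break the allosteric activator of phosphofructokinase, and Tigar breaks it down. Pfkfb3, the form with the strongest kinase activity and a HIF target, was at 5.65 FPKM (1518 counts) and 8.42 FPKM (2028 counts), a ratio of 1.49 (1.39 to 1.59). Pfkfb4 was at 1.27 and 1.39 FPKM, with an interval of 0.869 to 1.38. Tigar, a p53-induced phosphatase (chromosome 6, 127085116 to 127109557, minus strand), was at 4.39 FPKM (262 counts) and 2.49 FPKM (133 counts), a log2 ratio of -0.63 and a count ratio of 0.566 (0.456 to 0.700). Thus the activating enzyme Pfkfb3 was the higher and the opposing enzyme Tigar the lower in the AclyE14-ASO library, though Pfkfb3 was just short of 1.5-fold and Tigar was short of it after centring (-0.50).

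Aldolase cleaves the sugar bisphosphate into a pair of triose phosphates. Aldoa, the main form here, was at 118 and 106 FPKM, with a count ratio of 0.896 (0.869 to 0.922). Aldoc, the form best known from brain (chromosome 11, 78322968 to 78327781, plus strand), was at 1.75 FPKM (138 counts) and 3.75 FPKM (265 counts), a log2 ratio of 0.79 and a count ratio of 2.14 (1.74 to 2.65), and 95.3% of all expressed genes had a lower log2 ratio. Tpi1, which interconverts the triose phosphates, was at 51.5 FPKM (2890 counts) and 74.5 FPKM (3750 counts), a ratio of 1.45 (1.38 to 1.52). Of the 10 genes of the upper steps, 1 was higher and 2 were lower by 1.5-fold, beside 7.03% and 8.48% of all genes. After centring 3 were higher and 0 lower, beside 9.83% and 4.69% of all genes.

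In the lower, energy-yielding steps all 6 genes lay between the limits, with log2 ratios of -0.26 to 0.10. So did 7315 of the 8658 expressed genes. Of the 31 genes, so did all HIF regulators and targets outside glycolysis above the expression limit. Some of the further HIF genes given below did not. Gapdh, the triose phosphate dehydrogenase often used as a reference gene, was at 13.1 and 13.2 FPKM (1.01, 0.941 to 1.09). Pgk1, the first ATP-forming kinase of the pathway, was at 101 and 88.1 FPKM (0.876, 0.837 to 0.916), and the mutase Pgam1 was at 231 and 192 FPKM (0.833, 0.801 to 0.866). Enolase makes phosphoenolpyruvate: Eno1 had 1120 and 1081 counts (1.08, 0.989 to 1.17) and the neuronal form Eno2 at 1.74 and 1.75 FPKM (1.0, 0.852 to 1.18). Pkm, the pyruvate kinase gene, whose splice forms the gene-level values do not separate, was at 388 FPKM (14351 counts) and 404 FPKM (13377 counts), with a ratio of 1.04 (1.01 to 1.06).

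At the lactate step both dehydrogenase subunits were higher with AclyE14-ASO, by different amounts. Ldha, the subunit that favours lactate formation and a classical HIF target, was at 222 FPKM (14485 counts) and 266 FPKM (15558 counts), a ratio of 1.20 (1.17 to 1.22). Ldhb, the heart-type subunit that favours pyruvate formation (chromosome 6, 142490249 to 142507957, minus strand), was at 4.18 FPKM (117 counts) and 8.69 FPKM (218 counts), a log2 ratio of 0.90 and a count ratio of 2.08 (1.65 to 2.62). This was the highest log2 ratio of the 31 genes, and 96.3% of all expressed genes had a lower one. The monocarboxylate transporter Slc16a1 was at 6.48 and 6.29 FPKM (0.970, 0.839 to 1.12). Slc16a3, the transporter specialised for lactate export and a HIF target, was at 6.38 and 7.65 FPKM (1.20, 1.09 to 1.32). Pdk1, the kinase that shuts off pyruvate dehydrogenase, was under the expression limit at 0.884 and 0.653 FPKM (142 and 94 counts), with an interval of 0.563 to 0.964.

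Of the 31 genes, 6 are regulators of HIF or targets outside glycolysis, and none of the 5 of these above the expression limit passed 1.5-fold, also after centring. Hif1a, the alpha subunit, was at 19.9 FPKM (1962 counts) and 20.8 FPKM (1845 counts), a ratio of 1.05 (0.983 to 1.12). Messenger RNA does not report the protein, whose amount is set largely by degradation. Of its prolyl hydroxylases, Egln1 was at 3.98 and 2.92 FPKM (199 and 131 counts; 0.734, 0.584 to 0.920). Egln3, itself a HIF target, was under the expression limit at 0.634 and 1.18 FPKM (24 and 40 counts; 1.86, 1.09 to 3.22). Vegfa, the angiogenic growth factor, was at 2.17 and 2.69 FPKM (1.24, 1.06 to 1.45). Bnip3, a mitophagy receptor, was at 2.34 and 1.96 FPKM (0.839, 0.618 to 1.13), and the stress-responsive gene Ndrg1 at 32.9 and 28.5 FPKM (0.866, 0.826 to 0.908). The HIF targets thus did not share a direction in these libraries.

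**Figure D2:**
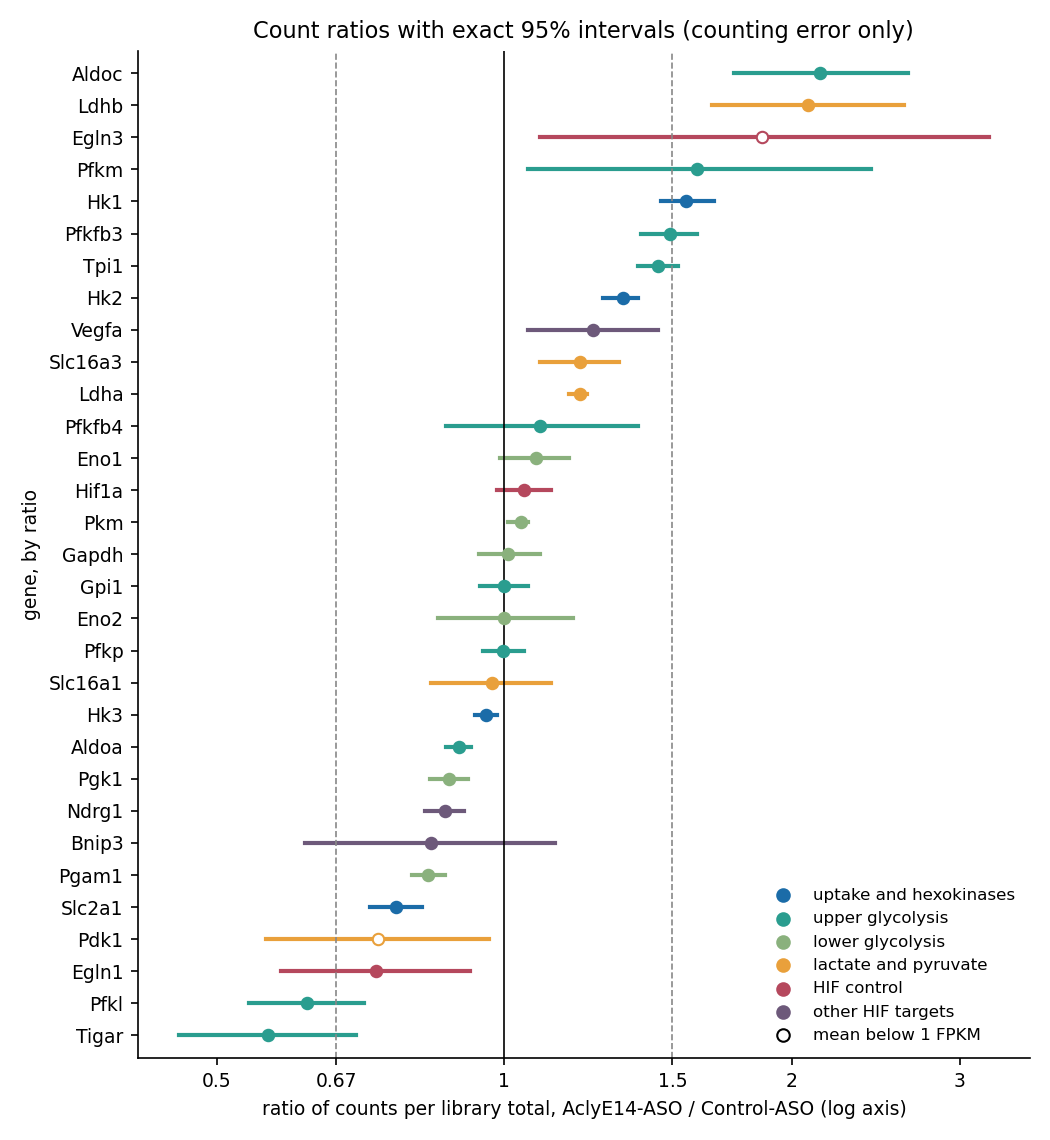
Ratio of counts per library total, AclyE14-ASO over Control-ASO, on a log axis, for the 31 genes in order of ratio; bars are exact 95% intervals for counting error, dashed lines mark 1.5-fold, and open symbols have a mean below 1 FPKM. Tigar (0.566) and Pfkl (0.621) are lowest and Aldoc (2.14) and Ldhb (2.08) highest, and the bars are widest for the genes with the fewest counts, such as Egln3.

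Where several genes encode forms of 1 enzyme, their balance within a library does not depend on how the libraries are scaled. Of 12 such pairs in 8 families, 11 had a ratio of count ratios whose counting interval excluded 1, the exception being Eno1 against Eno2 (1.07, 0.892 to 1.29). The share over other gene pairs was not taken. Pairs with many counts exclude 1 at small differences, such as Hk1 against Hk2 (1.17, 1.09 to 1.27). The pairs with Pfkm share its uncertain counts. Some minor forms held a larger share with AclyE14-ASO: relative to Aldoa, Aldoc was 2.39 times as high with AclyE14-ASO as with Control-ASO (1.93 to 2.96). Relative to Ldha, Ldhb was 1.73 times as high (1.38 to 2.19), which took its share of the family's FPKM from 1.85% to 3.16%. Both families remained almost wholly Aldoa (98.5% and 96.6%) and Ldha (98.2% and 96.8%).

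Hexokinase was mostly Hk3 in both libraries, 72.1% of the family's FPKM with Control-ASO and 64.4% with AclyE14-ASO. Relative to Hk3, Hk1 was 1.62 times as high (1.52 to 1.74) and Hk2 1.38 times (1.32 to 1.45). Pfkp held 69.7% and 76.0% of the phosphofructokinase FPKM and Pfkl 27.0% and 18.3%, so Pfkl relative to Pfkp was 0.623 (0.537 to 0.721). The summed phosphofructokinase level was 30.6 and 28.0 FPKM. Slc16a3 relative to Slc16a1 was 1.24 (1.04 to 1.47), and Pfkfb3 relative to Pfkfb4 was 1.36 (1.07 to 1.73). Egln3 relative to Egln1 was 2.53 (1.41 to 4.60), on 24 and 40 counts of Egln3. The fibroblast and stromal markers were higher in the same library as Hk1, Aldoc and Ldhb (59.2 and 255 FPKM summed), and their part in these shares was not tested.

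**Figure D3:**
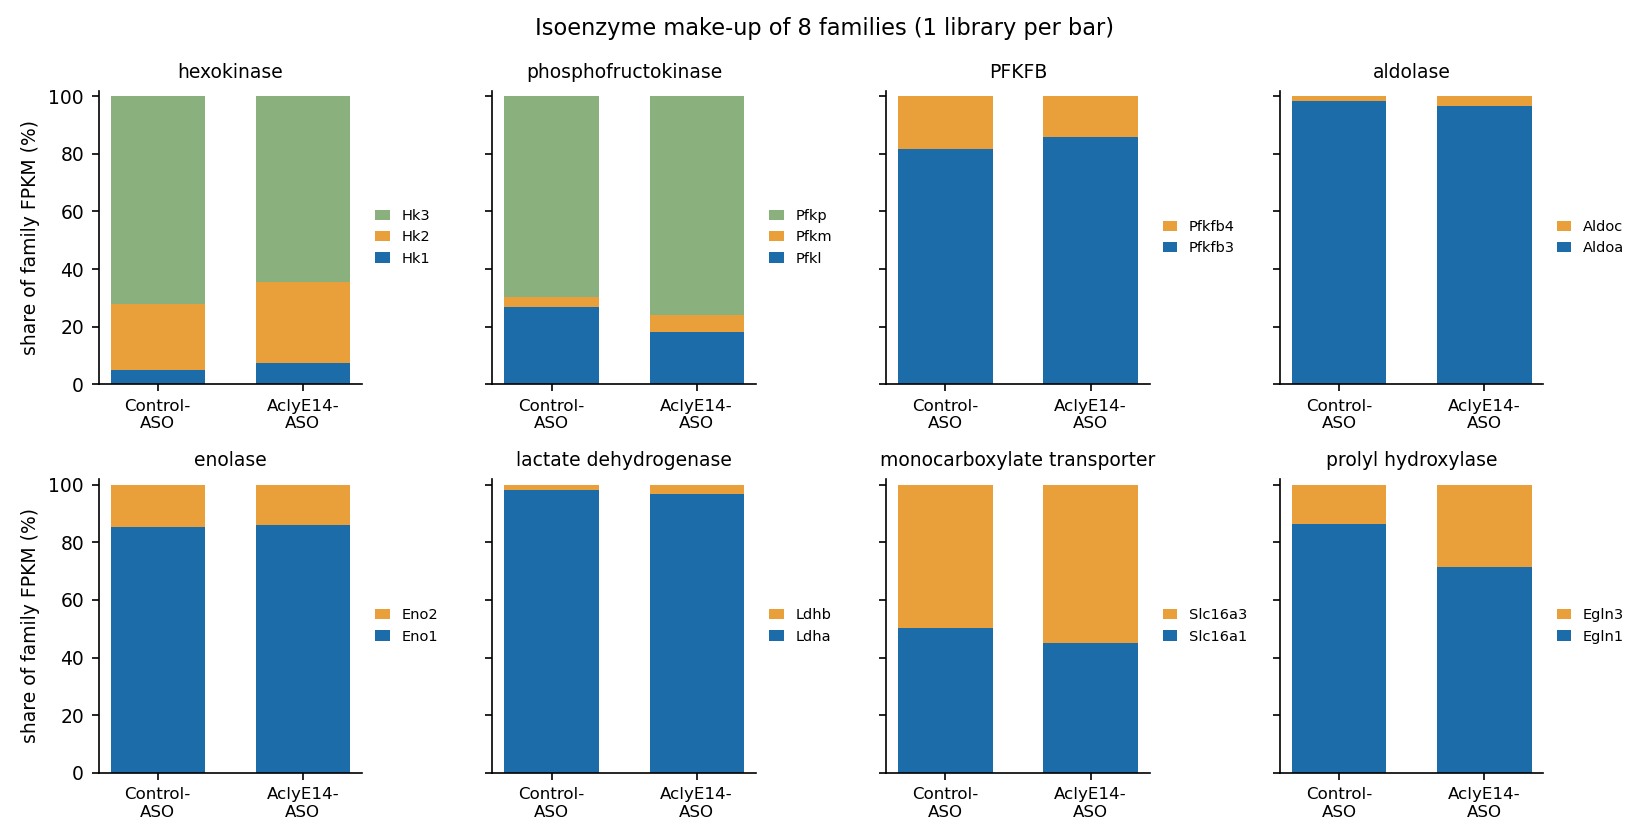
Share of each isoenzyme in the summed FPKM of its family, in percent, in each library, for 8 families. Hk3, Pfkp, Aldoa and Ldha remain the main forms in both libraries, while the Pfkl share is 27.0% with Control-ASO and 18.3% with AclyE14-ASO and the Egln3 share is 13.7% and 28.7%.

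Levels between genes are harder to compare, because the deposited FPKM use 1 length per gene that is often longer than any transcript. The length implied by counts and FPKM was 8626 nt for Gapdh, against 1420 nt for its longest coding transcript in GENCODE M21, or 6.07 times. For Eno1 it was 7863 against 2027 nt, and for Pkm 2599 against 2432 nt. The median of this ratio was 1.74 over 6492 genes with over 200 counts, and 21 of the 31 genes exceeded 1.5. Count ratios between the libraries are untouched by it, while the log2 ratios of FPKM + 1 and the expression limit depend on it. Per kilobase of the longest coding transcript, the log2 ratio of Aldoc was 0.92 in place of 0.79. Pdk1 then passed the limit, so 30 genes were called by size, with 3 higher and 2 lower.

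Per kilobase of the longest coding transcript, the order of abundance was led by Ldha, at 561 CPM per kilobase with Control-ASO (CPM, counts scaled to the library total) and 672 with AclyE14-ASO. Aldoa (450 and 403) and Pkm (415 and 431) followed and exchanged places between the libraries. Hk3 (254 and 243), Pgam1 (238 and 199), Pgk1 (168 and 147) and Tpi1 (127 and 183) came next, and Gapdh was at 79.5 and 80.4. On the same scale, Hk1 held 8.20% of the hexokinase family with Control-ASO and 12.0% with AclyE14-ASO, and Slc16a3 led the lactate carriers with 66.5% and 71.1%.

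**Figure D4:**
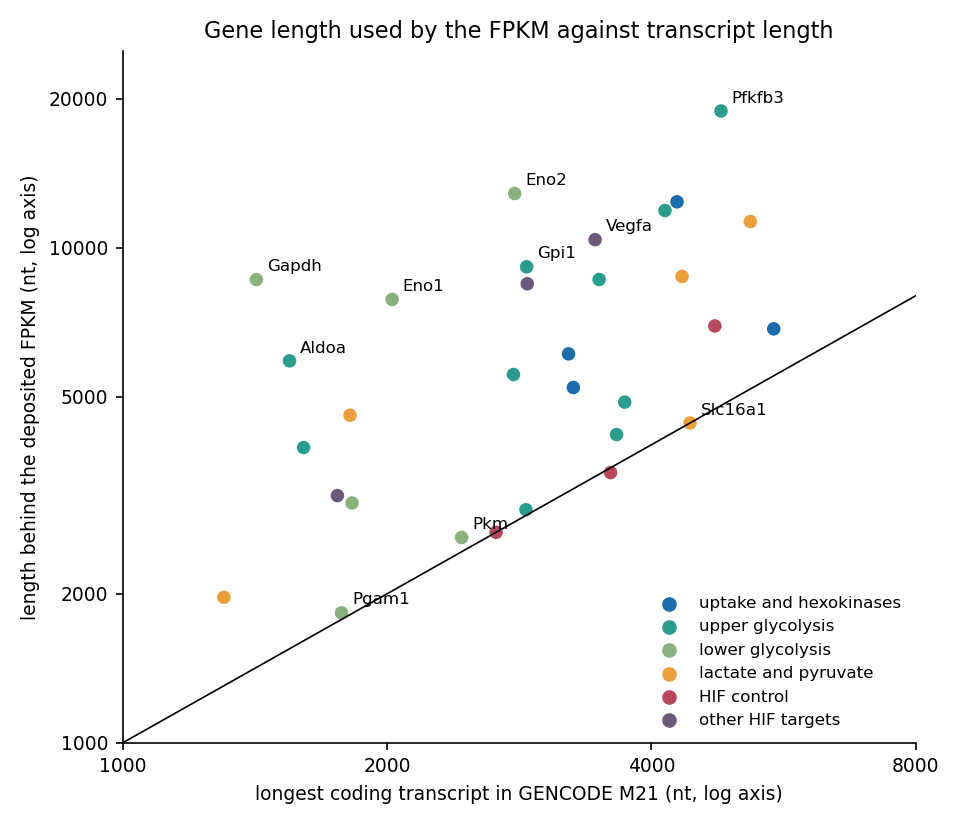
Gene length implied by the deposited counts and FPKM against the length of the longest coding transcript, both in nt on log axes, for the 31 genes coloured by role; the line marks equality. Gapdh, Eno1, Eno2 and Pfkfb3 lie far above the line, so their FPKM understate their level relative to Pkm, Pgam1 and Slc16a1, which lie close to it.

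Several of these genes have near-identical copies, and the sources used here do not say how the authors assigned shared reads. Copies aligning at 90% identity or more were found for 8 of the 31, of which only Tpi1 passed 1.5-fold, and only after centring or with TMM scaling. Of all 75-base windows, 67.4% of those of Pgk1, 64.2% of Eno1, 61.1% of Gapdh and 40.6% of Pgam1 also occur in a copy, so the levels of these genes are uncertain. The copy with the most counts was Pgam1-ps2 (856 and 704 counts), followed by Eno1b (404 and 296 counts). When Eno1 and Eno1b were summed the log2 ratio was 0.01 in place of 0.10, and when Pgam1 was summed with its copies it was -0.24 in place of -0.26.

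HIF binds a short core in regulatory DNA, searched here as the letters ACGTG and GCGTG on both strands of the 250 bases before each start in the RefSeq promoter table (GRCm38.p6). The palindrome CACGTG, also the E-box bound by factors such as Myc, counts as a match on each strand. Promoter windows were given for 30 of the 31 genes, all but Ndrg1. The letters ACGTG occurred for 17 of the 30 (56.7%), against 18.5% of 27025 genes, and either core occurred for 26 (86.7%) against 41.5%. Genes with more than 1 start have more windows and so more room for a match; counted per window, ACGTG was in 45.5% of 44 windows and in 16.6% of 32851. The lines below show selected windows, 5′ to 3′ on the gene's strand with matches in capitals. Of these, 3 are of genes rich in the core and level or little different between the libraries (Ldha, Slc16a1 and Bnip3). The others are of Ldhb and Hk1, which were called higher, and the windows shown for them hold 1 match and none. The second window of Hk1, not shown, holds 3 GCGTG matches. The second window of Pfkfb3, which had a count ratio of 1.49, holds 3 matches and is not shown either. The shares depend on base composition, which was not matched.

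Ldha (chr7:46845554-46845803, plus strand, 5 matches): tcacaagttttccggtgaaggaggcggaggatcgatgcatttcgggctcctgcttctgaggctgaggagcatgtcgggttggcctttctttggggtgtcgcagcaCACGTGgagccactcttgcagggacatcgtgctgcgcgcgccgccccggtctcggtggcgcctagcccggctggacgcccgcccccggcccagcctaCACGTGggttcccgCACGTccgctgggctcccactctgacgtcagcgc
Slc16a1 (chr3:104638414-104638663, plus strand, 4 matches): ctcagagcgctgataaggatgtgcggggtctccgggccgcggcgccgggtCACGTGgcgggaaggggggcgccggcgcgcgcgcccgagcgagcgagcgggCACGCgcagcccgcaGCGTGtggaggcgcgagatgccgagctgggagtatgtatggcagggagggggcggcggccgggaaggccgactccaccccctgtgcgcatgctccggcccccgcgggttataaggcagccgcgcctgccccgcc
Bnip3 (chr7:138909507-138909756, minus strand, 5 matches): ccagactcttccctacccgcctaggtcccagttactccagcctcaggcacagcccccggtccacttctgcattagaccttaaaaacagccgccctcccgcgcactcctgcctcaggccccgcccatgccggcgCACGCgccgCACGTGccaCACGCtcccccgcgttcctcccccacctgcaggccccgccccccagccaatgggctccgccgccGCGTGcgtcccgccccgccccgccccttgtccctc
Ldhb (chr6:142507958-142508207, minus strand, 1 match): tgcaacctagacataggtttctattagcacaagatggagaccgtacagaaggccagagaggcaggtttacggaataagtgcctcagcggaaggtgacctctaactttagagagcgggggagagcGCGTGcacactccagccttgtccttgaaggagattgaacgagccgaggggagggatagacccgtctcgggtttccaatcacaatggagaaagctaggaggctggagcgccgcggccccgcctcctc
Hk1 (chr10:62379909-62380158, minus strand, the first of its windows, 0 matches): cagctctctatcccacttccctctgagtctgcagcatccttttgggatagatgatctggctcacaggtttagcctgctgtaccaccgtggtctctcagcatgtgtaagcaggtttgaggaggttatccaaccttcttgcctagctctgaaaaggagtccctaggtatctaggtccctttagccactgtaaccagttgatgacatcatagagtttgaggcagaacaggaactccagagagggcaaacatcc

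The windows with the most matches belonged to genes that differed little: Ldha had a log2 ratio of 0.26, Slc16a1 of -0.04 and Bnip3 of -0.17. Among genes above the expression limit, the 16 with ACGTG in a window had a median log2 ratio of 0.01 (range -0.36 to 0.50), and 0 passed 1.5-fold in either direction on the FPKM + 1 scale. The 12 without it had a median of 0.05 (range -0.63 to 0.90). All 5 of the called genes, Hk1, Aldoc, Ldhb, Pfkl and Tigar, were among them. Over all expressed genes 7.03% were higher and 8.48% lower, so few calls would fall in either set at that rate. The shares among all expressed genes with and without ACGTG were not taken, so no link between the letters and the calls is drawn. The other core, GCGTG, was in a window of each of these but Tigar. The split depends on the scale: Pfkfb3 and Pfkm, which hold ACGTG, passed after centring (0.63) and by count ratio (1.59) respectively, and after centring Pfkl and Tigar no longer passed. A match is a description of the letters and shows no binding.

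Other genes around these pathways give the setting. Of 40 further glycolysis, glucose transport and pyruvate genes, 17 passed the expression limit, with 1 higher, 2 lower and a median log2 ratio of -0.25, beside 7.03% higher, 8.48% lower and a median of -0.13 over all genes. The 1 higher was Slc2a6, a glucose transporter family member of lysosomes, at 27.6 and 64.4 FPKM (2.33, 2.21 to 2.46). Slc2a1, at a count ratio of 0.770, lay between the 1.5-fold limits. The monocarboxylate transporter chaperones Bsg, at 57.2 and 66.7 FPKM, and Emb, at 33.6 and 44.7 FPKM, had ratios of 1.17 (1.11 to 1.23) and 1.33 (1.23 to 1.45). The lower genes were Pgp, a phosphatase that clears side products of glycolysis (12.1 and 6.19 FPKM; 0.510, 0.387 to 0.667), and Pdp2, which reactivates pyruvate dehydrogenase (3.39 and 1.62 FPKM; 0.478, 0.357 to 0.633).

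Of 16 further genes of the HIF machinery, 14 passed the limit, with 0 higher, 2 lower and a median of -0.24. Cited2, a competitor of HIF for its coactivators, was at 113 and 63.2 FPKM (0.558, 0.525 to 0.593), and the ubiquitin ligase Siah2, which acts on prolyl hydroxylases, was at 8.38 and 4.63 FPKM (0.553, 0.463 to 0.659). Epas1, the second HIF alpha gene, was level at 5.86 and 5.81 FPKM (0.991, 0.863 to 1.14), and Elob, the elongin subunit of the ligase that degrades HIF, was at 246 and 279 FPKM. Of 44 further HIF targets 31 passed, with 6 higher, 6 lower and a median of -0.12, beside the same 7.03% and 8.48% of all genes. After centring 8 were higher and 3 lower, beside 9.83% and 4.69% of all genes. Of the 31, 29 were at 1 FPKM or more with Control-ASO. Among the 6 higher, Angptl4 (0.607 and 2.80 FPKM), named after its values were seen, passed the limit only through the AclyE14-ASO library. The cytokine gene Il1b was at 696 and 2490 FPKM (3.59, 3.53 to 3.64). The chemokine receptor Cxcr4 was at 17.2 and 3.45 FPKM (0.201, 0.164 to 0.244) and Lox, a collagen cross-linking enzyme, at 16.7 and 5.06 FPKM (0.303, 0.273 to 0.335).

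**Figure D5:**
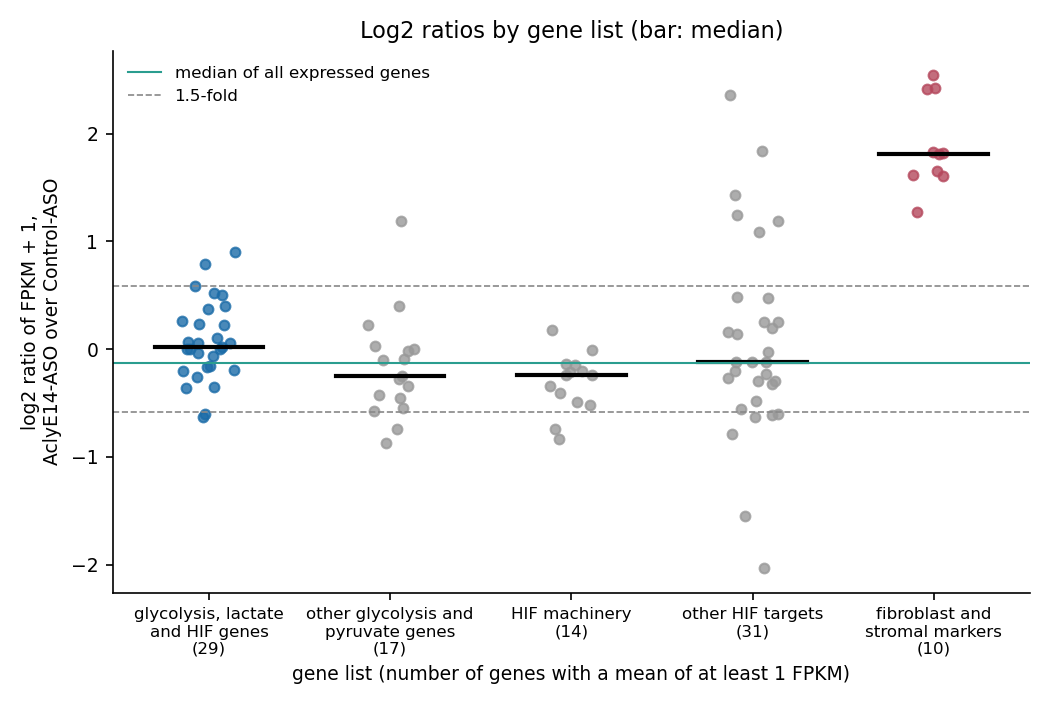
Log2 ratios on the FPKM + 1 scale (AclyE14-ASO relative to Control-ASO) of the genes in 5 lists that averaged 1 FPKM or more; black bars are list medians, the solid line is the median of all expressed genes (-0.13) and dashed lines mark 1.5-fold. The 29 glycolysis, lactate and HIF genes lie between -0.63 and 0.90, and the other HIF targets include Cxcr4 at -2.03 and Il1b at 1.84. Of the 14 listed fibroblast and stromal markers, the 10 shown lie above 1, but only 7 had 1 FPKM or more with Control-ASO. The rest of those shown passed the limit only through the AclyE14-ASO library.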

How the data were processed

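RNA from 2 samples, 1 per group, was measured by RNA-seq. Per the file headers, the authors deposited raw counts and FPKM for 34745 Ensembl identifiers. The submitters' processing notes name HISAT2, StringTie 1.3.0, edgeR and mm10, with no roles; the sources used here do not give strand use in counting. FPKM follow the deposited counts with 1 length per gene and no further scaling between libraries. Symbols for 34267 identifiers came from GENCODE M21 (GRCm38); the other 478, with 0.175% and 0.136% of counts, stayed in the totals.

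Levels were compared as log2 ratios after adding a pseudocount of 1 FPKM, among genes averaging 1 FPKM or more; this understates the difference of low genes. Calls were by size, at 1.5-fold. Count ratios carry exact Clopper-Pearson 95% intervals; without molecular identifiers, reads cannot be taken as independent molecules. Members and lists were chosen with earlier results of these data known. Named were all 31 genes, Acly, defining markers and, per further list, the 2 highest, the 2 lowest and the most abundant gene; 1 of these is not reported here. Copies were found with BLAST 2.17.0 (at least 90% identity over 200 nt, covering 50% of the copy). TMM factors (1.036 and 0.965) came from edgeR 4.0.16 in R 4.3.3. All else used Python 3.11.15, NumPy 2.4.6, pandas 2.3.3, SciPy 1.17.1 and matplotlib 3.10.9. The calculations were tested on simulated data. Alternatives were other pseudocounts, scalings, expression limits and thresholds, and sums with gene copies; sums over aligned copies and overlaps on either strand, and lengths of the longest coding transcript, were chosen after seeing the data.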

Additional observations from a re-analysis of the deposited data

How the results depend on the processing

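Of the 29 genes, 3 were higher and 2 lower by 1.5-fold. With a pseudocount of 5 FPKM, or with a threshold of 2-fold, 0 were higher and 0 lower; with a threshold of 0.32 on the log2 scale, 7 were higher and 4 lower. With the log2 ratios centred on the median gene 5 were higher and 0 lower and the median was 0.14 in place of 0.02; with TMM scaling 5 were higher and 0 lower. With a mean of at least 5 FPKM, 2 were higher and 1 was lower. Shares higher and lower over all genes, given above, were taken only for the main rule, count ratios and centring. The counts at the other settings thus have no background beside them. Of the other HIF pathway and target genes, 6 were higher and 8 lower; 8 were higher after centring, 5 were lower after centring or with TMM, and 12 were lower by count ratio. A pseudocount of 0.1 FPKM, ratios of counts, no expression limit, sums with copies and lengths of coding transcripts kept the counts of the 31 genes within 1.5 times. No called gene turned its direction under any of these alternatives. Hk3, Pfkp and Slc16a1, all close to equal levels, changed sign under centring and TMM, and Pfkm did when the overlapping Senp1 was added (-0.05). No paired analysis was possible because each group had 1 library, and no library could be left out. Depth limits Egln3, Pfkm, Pdk1 and Bnip3 most, with 24 to 142 counts each.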
